A study of Mus musculus with 31 samples.

Results

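Lungs of mice taken 24 h after an intravenous saline injection were compared with lungs taken 1, 1.5 and 3 h after the same injection, across all genes on the array. The comparison used 9 of the 31 arrays of the series, chosen by their titles: 2 arrays at 24 h, and as reference the mean of the 3 early time means, from 3 arrays at 1 h, 2 at 1.5 h and 2 at 3 h. All mice were female C57BL/6 of 6 weeks, anesthetized with xylazine and ketamine and given 200 µl of physiological serum into the tail vein. The oleic acid mice of the series, used below only for comparison, were handled in the same way and received oleic acid at 1.2 µl per g body weight. No mice without anesthesia and injection were analysed here, so the early lungs are not a resting state, and the late change describes the distance from the first hours after handling. Nothing in the labels says that the replicates came from separate mice, so p-values measure the spread between these samples.

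As background, handling, anesthesia and injection can set off an acute stress response. In general, catecholamines and growth factor signals switch on immediate early genes, and corticosterone released from the adrenal gland acts through the glucocorticoid receptor on genes such as Per1, Sgk1 and Ddit4. The lung also holds its own circadian clock, in which Arntl (BMAL1) and Clock or Npas2 drive the Per, Cry and Nr1d genes, whose proteins repress that drive in turn, and Dbp, Tef and Hlf pass the rhythm on to output genes. The hour of day at injection and at sampling is not given in the sources used here, so a clock phase can be read only from the genes themselves.

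The lung label was checked against its markers. Scgb1a1 of club cells, Sftpc of alveolar type 2 cells, Ager of alveolar type 1 cells, Cdh5 of endothelium and Marco of alveolar macrophages were well above background on all 9 arrays. Levels below are the log2 signal of a probe minus the 75th percentile of its array, and differences are differences of these log2 levels. Between 54.3% and 81.7% of the spots of these arrays lay above background, the highest share being on saline 1 h replicate 1 (81.7%) and the next on 1.5 h replicate 2 (72.2%). Late and early arrays lay on different slides: both 24 h arrays were on slide 4 and all early ones on slides 1 and 2, so slide and time cannot be told apart in this comparison. The only late against early saline arrays on 1 slide were those of 18 and 4 h, on slide 3. Their difference is given for some leading genes and for most lists, where the median over all features was -0.05. With slide as a random block the estimated correlation within slides was -0.26, and 296 features passed in place of 5. Its median standard error was 0.19 against 0.25. No slide held both 24 h and early arrays, so that fit cannot take a slide difference out of the comparison, and the 296 are not a count corrected for slide.

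Some arrays stood apart in ways that touch the results. Saline 1 h replicate 3 differed from the other 1 h arrays in clock genes: Dbp stood at 5.91 there against 1.13 and 1.73 in replicates 1 and 2. Genes made mainly in liver were high on 1 h replicate 2, where albumin (Alb) reached 7.39, and on 1 h replicate 1 at 5.17. On the 24 h arrays Alb stood at 1.85 and 3.44. The mean level of 12 liver genes, a list chosen after their values were seen, ran from 0.38 to 5.32 on the early arrays and was 0.26 and 1.02 at 24 h. Fat cell genes and, on 1.5 h replicate 2, heart muscle genes also varied between arrays. In whole lungs more or fewer cells of a type and more or less RNA per cell cannot be told apart.

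Of 28085 features tested by limma with Benjamini-Hochberg adjustment, 5 passed an adjusted p of 0.05 (0.0178%), all of them higher at 24 h and none lower. The count was 0 without 1 h replicate 1 or 2, or either array of 1.5 or 3 h, 1 without 1 h replicate 3 or either 4 h array, and 9 without 24 h replicate 1. At an unadjusted p under 0.05 there were 2641 features (9.4%), and the median difference of all features was 0.08. Of all 28085 features 16606 differed above 0 and 11479 below, the background for the counts by direction given below. The median standard error of a difference was 0.25. Of the 28019 features with a value on all 9 arrays, both 24 h arrays lay above all 7 early arrays for 1618 (5.77%) and below all of them for 589 (2.1%).

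The glutathione S-transferase gene Gsta1 had the smallest p of all features. Gsta1 encodes an enzyme of the alpha class, which joins glutathione to electrophiles and reduces lipid peroxides. Its level was -3.68, -4.17 and -3.45 on the 1 h arrays, -4.19 and -3.31 at 1.5 h, and -3.49 and -3.26 at 3 h. At 24 h it was 0.26 and -0.51, above every early array. The difference was 3.50 (SE 0.32, 95% interval 2.78 to 4.22, n = 2 against 7), an 11.3-fold higher signal, and passed at an adjusted p of 0.0416 (limma). Between these times the level stood at -2.32 and -2.34 at 4 h and at -1.0 and -0.27 at 18 h. The 18 h arrays were higher than the 4 h arrays of the same slide by 1.70 (adjusted p 0.0943, limma). The array signal was well above background on all 9 arrays. The 11.3-fold size holds for the processed signal alone. The log2 difference was 2.02 with normexp background and 2.41 in the authors' deposited table.

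Over 35 alternative settings Gsta1 kept its direction, with differences from 0.47 to 3.89, and it passed in 14. Leaving out 1 of the 9 arrays ended the call in 8 cases, with adjusted p of 0.0525 to 0.161, and 24 h replicate 2 was the exception (0.0438). With slide as a fixed term, and time and treatment additive over 29 arrays, the difference was 0.47 (adjusted p 0.934, limma). That fit takes time as 1 effect over both treatments, not in saline mice alone. Only oleic acid 3 h replicate 3 and the 18 h arrays of both treatments link early to late slides in it. Its median standard error was 0.54 against 0.25, and its median over all features was -0.16. These limits hold for all its values below.

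3 further passing features read the same gene family, and their probes are shown because their sequences are alike. The Gsta1 probe lies at chr9:78090411-78090470 of mm9, on the plus strand, and the files annotate it to Gsta1 without naming an exon. A second probe, from an array entry for a long intergenic RNA, lies 26.5 kb downstream at chr9:78116894-78116953, also on the plus strand, and its 60 bases are identical to the Gsta1 probe. Another probe of the same entry covers the adjacent 60 bases at chr9:78116834-78116893. The probe of the predicted gene Gm10639 lies at chr9:78153243-78153302 on the plus strand, and the Gsta2 probe at chr9:78178856-78178915 on the minus strand. From the shared start of the alignment, 30 bases of each probe are given 5′ to 3′, with the positions that differ between them in capitals:
Gsta1: ctggcctctaatGgtttgcaattataaaaA
Intergenic entry, second probe: ctggcctctaatGgtttgcaattataaaaA
Gm10639: ctggcctctaatGgtttgcaattataaaaT
Gsta2: ctggcctctaatTgtttgcaattataaaaT
Within these 30 bases, counted from the first base shown, the Gm10639 probe differs from the Gsta1 probe by A30T, and the Gsta2 probe by G13T and A30T. The other bases of the Gm10639 and Gsta2 probes were not compared with those of the Gsta1 probe. The third probe of the family, from the intergenic entry, shares no such window, and its last 30 bases are:
Intergenic entry, adjacent probe: agtgaagctgcattgatggagccacagata
Signals of copies that share a probe sequence cannot be told apart on this array.

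The features read by the probes given above lay above the early arrays at 24 h. The probe identical to that of Gsta1 rose by 3.16 (adjusted p 0.0439, limma), and the adjacent one by 3.29 (adjusted p 0.0485). Gm10639 rose by 2.13 (SE 0.23, adjusted p 0.047, limma), from levels of -1.45 to -1.03 on the early arrays to 1.30 and 0.61 at 24 h. Gsta2 was higher by 0.64 and did not pass (adjusted p 0.363), although both its 24 h arrays, at 0.66 and 0.18, lay above every early array. With slide as a fixed term Gsta2 turned below 0, at -0.67. A rise of the whole alpha class was not seen, as Gsta4, another gene of it, differed by -0.13. Gclc, the catalytic subunit that makes glutathione, differed by 0.04. In the list of 26 Nrf2 targets, the antioxidant genes of which Gsta1 is one, 25 were measured and only Gsta1 passed. Txnrd1, a thioredoxin reductase, was lower by 0.77 (adjusted p 0.363) and Osgin1 by 0.66 (adjusted p 0.513), and the median of the list was -0.04.

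The last of the 5 passing features was a probe without a gene name. It reads an intergenic RNA entry on the minus strand at chr15:100905368-100905427 of mm9. Its level was between -5.37 and -4.17 on the early arrays and was -1.44 and 0.20 at 24 h. It rose by 4.23 (SE 0.46, adjusted p 0.047, limma) but lay above background in 5 of 7 early arrays. In oleic acid mice its difference was -0.16 (adjusted p 0.976), and the difference between the treatments was 4.38 (unadjusted p 7.7e-06, adjusted p 0.216). Without the 4 features of the Gsta family, 0 features passed over the remaining 28081, at a smallest adjusted p of 0.167, against 2637 at an unadjusted p under 0.05.

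**Figure D1:**
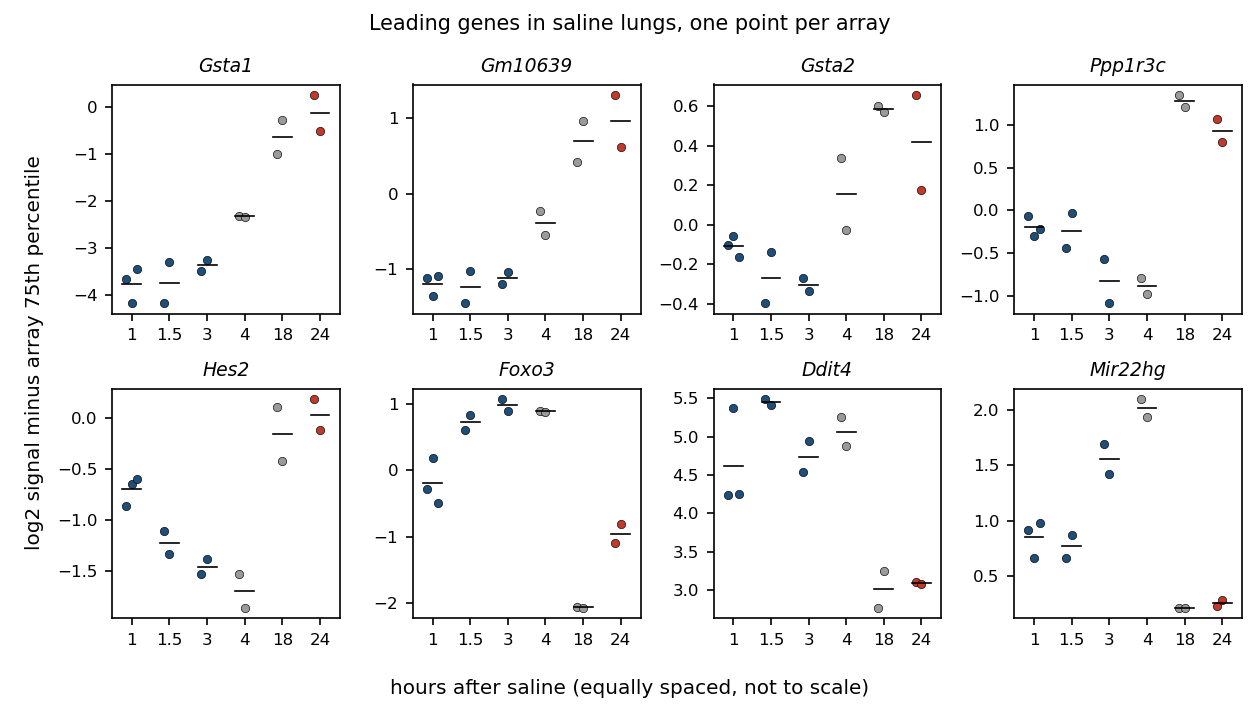
Log2 level (signal minus the 75th percentile of the array) in each saline array at 6 times for 8 leading genes, with early arrays in blue, 24 h arrays in red, 4 and 18 h arrays in grey and group means as lines. Gsta1 lay between -4.19 and -3.26 on the early arrays and at 0.26 and -0.51 at 24 h.

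No gene with a current name passed apart from Gsta1, and the next genes by unadjusted p among those whose arrays did not overlap are given as not passing. Among the higher ones, Ppp1r3c, a phosphatase subunit that promotes glycogen storage, stood at -1.09 to -0.03 on the early arrays and at 1.07 and 0.80 at 24 h. The 24 h arrays lay above every early array, by 1.35 (SE 0.19, adjusted p 0.158, limma). Between 4 and 18 h on slide 3 Ppp1r3c rose by 2.18 (adjusted p 0.0218), and in oleic acid mice it rose by 0.98 (adjusted p 0.0359). Hes2, a repressor of the Hes family, was higher by 1.16 (adjusted p 0.253), from -1.54 to -0.59 on the early arrays to 0.19 and -0.12. Snai1, a repressor of epithelial genes, was higher by 0.89 (adjusted p 0.275), Mthfsd by 0.90 and Fdxacb1 by 0.97. Cbx8, a Polycomb subunit, had a fitted difference of 2.42 (adjusted p 0.275), but it was above background on 1 of 7 early arrays, so the size of that difference is not well measured. L3mbtl4 was above background on no early array and at -3.24 and 0.12 at 24 h, at least 11.4-fold higher in the processed signal (adjusted p 0.263), with the 24 h arrays far apart. That bound holds for the processed signal alone: the log2 difference of L3mbtl4 was 1.81 with normexp background and 0.25 in the authors' deposited table. Slc5a9, a sodium-dependent sugar transporter, was higher by 1.42 (adjusted p 0.253), and Card6 by 0.83. Slc5a9 and L3mbtl4 turned below 0 with slide as a fixed term, at -1.18 and -0.26.

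On the lower side Foxo3, a forkhead factor that insulin signalling keeps out of the nucleus, came first. Its level was -0.49 to 0.19 at 1 h, 0.60 and 0.84 at 1.5 h, 1.07 and 0.90 at 3 h, and -1.10 and -0.81 at 24 h. The 24 h arrays lay below every early array, by 1.46 (difference -1.46, SE 0.19, adjusted p 0.111, limma). On slide 3 it stood at 0.90 and 0.89 at 4 h and at -2.06 and -2.08 at 18 h, and fell by 2.96 (adjusted p 0.0109). Ddit4, which restrains growth signalling through mTOR, was at 4.24 to 5.48 on the early arrays and at 3.11 and 3.09 at 24 h (difference -1.84, adjusted p 0.253). Mir22hg, the host transcript of miR-22, differed by -0.80 (adjusted p 0.263), from early levels of 0.66 to 1.69 down to 0.23 and 0.28. Tead3, a Hippo pathway factor, differed by -0.98 and the growth factor Egf by -1.40, both at an adjusted p of 0.275. 4 more lay below background on both 24 h arrays, so their change is a bound: the fructose transporter Slc2a5 was at least 2.32-fold lower, the actin-severing Scin at least 1.65-fold, Rsad1 at least 2.15-fold and Tmem163 at least 1.04-fold. These bounds too hold for the processed signal alone. With normexp background the log2 difference was -0.32 for Slc2a5, -0.056 for Scin, -0.21 for Rsad1 and 0.0066 for Tmem163. Rsad1 turned above 0 with slide as a fixed term, at 0.49.

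Glucocorticoid-induced genes were low at 24 h as a list. All 28 were measured, 25 had a difference below 0 and 3 above, with a median of -0.65 against 0.08 over all features, and 0 passed. 4 lay below every early array (14.3%, against 2.1% of all features): Ddit4, Per1, Pdk4 and the interleukin 1 decoy receptor Il1r2. Per1, also a clock repressor, was at 4.49 to 5.51 at 1 and 1.5 h and at 6.38 and 6.68 at 3 h. At 24 h it stood at 3.93 and 4.24 (difference -1.55, SE 0.30, adjusted p 0.275, limma). Pdk4, the kinase that shuts off pyruvate oxidation, ranged from -0.67 to 2.00 early and was -0.91 and -1.01 at 24 h (difference -1.77, adjusted p 0.325). Il1r2 differed by -1.33 (adjusted p 0.444). Sgk1, a kinase that raises sodium transport, differed by -0.80, the growth factor receptor inhibitor Errfi1 by -1.55 and the phosphatase Dusp1 by -0.87, none passing. Without 24 h replicate 1 Sgk1 was at -0.52 and Errfi1 at -0.98. Nfkbia, the inhibitor of NF-kappaB, differed by -0.66, from 6.00 to 7.14 early to 5.75 and 6.01. The list's mean level was lowest at 1 h (2.48 to 3.35) among the early times, and was 2.39 and 2.53 at 24 h. Between 18 and 4 h on slide 3 the median difference of the list was -2.03. Without saline 1 h replicate 3, 7 members lay below the early arrays (25%), against 2.47% of all features. The count was 6 (21.4%, against 5.64%) without 1 h replicates 1 and 2, and 4 (14.3%, against 2.8%) without 1 h replicate 2. Without the early arrays with over 70% of spots above background it was 6 (21.4%, against 3.68%).

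Genes of fasting and fuel switching lay in the same direction. Of 30 measured, 26 differed below 0, the median was -0.39, 0 passed, and 3 (10%, against 2.1% of all features) lay below every early array, among them Foxo3 and Pdk4. Between 18 and 4 h on slide 3 the median was -0.40. Cpt1a, the entry step of fatty acids to mitochondria, differed by -0.50 (adjusted p 0.559), and the carnitine carrier Slc25a20 by -0.53. Igfbp1, made mainly in liver, differed by -3.09 (SE 1.66, adjusted p 0.593) and was highest on the array with the most albumin, at 4.19, and the part of that signal in the result was not tested. Igfbp1 was above background on 1 of the 24 h arrays, and its difference was -1.51 without 24 h replicate 1 and -4.66 without replicate 2. The members below the early arrays were 4 (13.3%, against 2.47% of all features) without 1 h replicate 3, 9 (30%, against 5.64%) without 1 h replicates 1 and 2, and 7 (23.3%, against 3.68%) without the early arrays over 70%.

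Immediate early genes were highest at 3 h among the early times, with a mean level of 1.85 and 1.62, and their mean level at 24 h (0.49 and 0.55) was near that at 1 h (0.30 to 0.50). Of 18 measured members, 15 differed below 0, with a median of -0.25, and none lay outside the early range. On slide 3 the median of 18 against 4 h was -0.30. Fosb, a partner of Jun in AP-1, stood at -1.13 to -0.61 at 1 h, -0.97 and -1.68 at 1.5 h and 1.80 and 2.17 at 3 h. At 24 h it was at -1.29 and -1.06, near the 1 h levels. Atf3, a stress-induced repressor, was at 2.34 and 1.60 at 3 h and -1.55 and -0.56 at 24 h (difference -1.5, adjusted p 0.373). Fos at 24 h was -1.04 and -1.08, within its 1 h range of -1.51 to -0.85. Junb differed by -1.24, Ier2 by -0.82 and Maff by -0.74, with adjusted p of 0.476 to 0.482. The nuclear receptor Nr4a2 stood at 2.98 and 2.46 at 3 h, at 0.09 to 0.87 at 1 and 1.5 h and at 0.30 and 0.44 at 24 h. Among the 15 Nr4a, Klf and Dusp factors 11 differed below 0, and the median was -0.32. Dusp6, a phosphatase of ERK, was higher by 0.71 (adjusted p 0.542), and Dusp5, not well above background at 24 h, was at least 1.42-fold lower in the processed signal, against a log2 difference of 0.052 with normexp background.

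**Figure D2:**
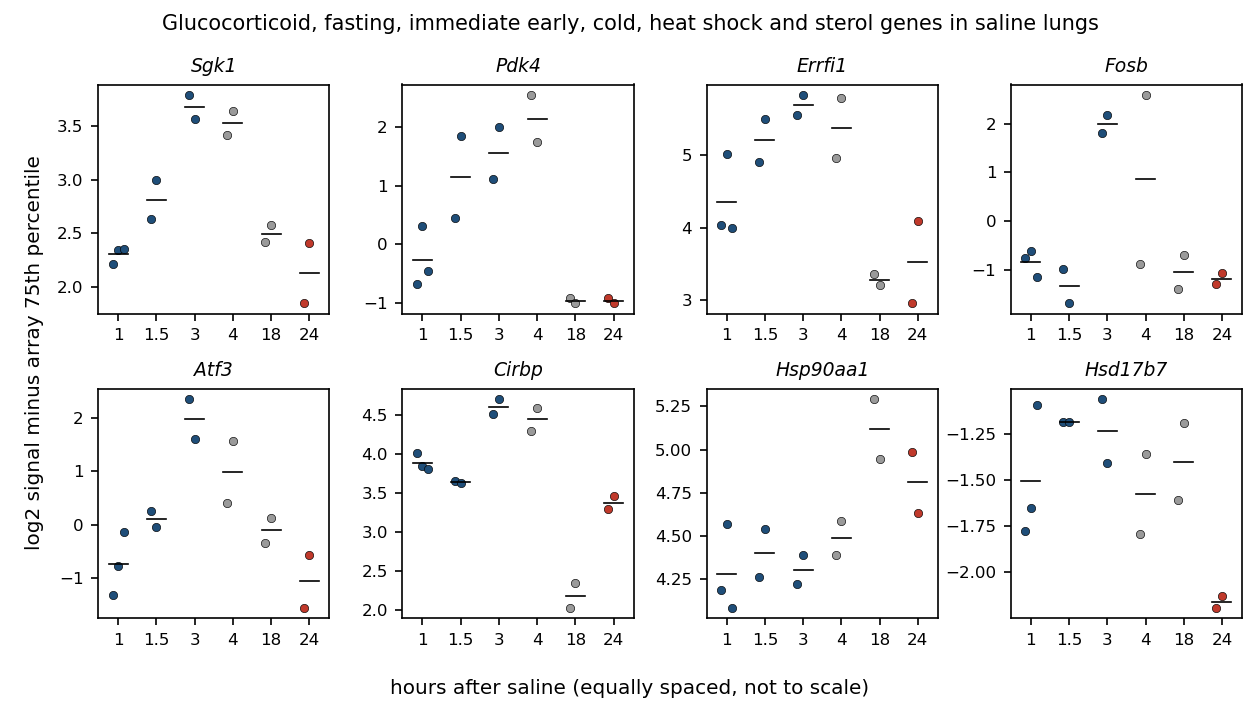
Log2 level in each saline array at 6 times for 8 genes of glucocorticoid, fasting, immediate early, cold, heat shock and sterol lists, colours and lines as for the leading genes. Fosb reached 1.80 and 2.17 at 3 h and stood at -1.29 and -1.06 at 24 h.

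The cold-inducible RNA-binding genes, whose products rise when body temperature drops, number 2 on the list, and 0 passed. Their median was -0.56 at 24 h and -1.70 between 18 and 4 h. Cirbp was between 3.63 and 4.70 on the early arrays and at 3.29 and 3.46 at 24 h, below all of them (difference -0.67, SE 0.15, adjusted p 0.314, limma). At 18 h it stood at 2.02 and 2.34, and from 4 to 18 h on slide 3 it fell by 2.26 (adjusted p 0.0109). In oleic acid mice it fell by 0.95 (adjusted p 0.0303). Rbm3 differed by -0.44, at 3.63 and 3.72 against 3.55 to 4.69 early, and did not pass.

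The chaperone lists had medians above that of all features. Of 21 heat shock genes measured, 14 differed above 0, against 16606 of all 28085 features, which is a similar share. Their median was 0.28, 0 passed, and 5 lay above every early array (23.8%, against 5.77% of all features). On slide 3 the median of 18 against 4 h was 0.34. Hsp90aa1, a cytosolic chaperone, stood at 4.08 to 4.57 early and at 4.99 and 4.63 at 24 h (difference 0.48, adjusted p 0.492). Hspa8 at 7.07 and 7.01 and Stip1 at 2.48 and 2.35 also lay above their early arrays, as did Hspd1 at 3.26 and 3.04. The factor Hsf1, which drives them, was higher by 0.28 and the mitochondrial Hspe1 by 0.55, both overlapping the early arrays. In the list of the unfolded protein and integrated stress response 15 of 21 were above 0, the median was 0.12, 0 passed, and 7 (33.3%) lay above every early array. The median was 0.28 on slide 3 and -0.0087 with median centring, which put that of all features at -0.05. These were Hspa5 (BiP), the endoplasmic reticulum's main chaperone, with Hsp90b1, Pdia6, Creld2, Sdf2l1, Manf and the asparagine synthetase Asns. Hspa5 was at 4.70 to 5.51 early and at 5.91 and 5.64 at 24 h (difference 0.58, adjusted p 0.503), and Hsp90b1 differed by 0.78 (adjusted p 0.507). The list's Creld2 was higher by 0.58 (adjusted p 0.363), Sdf2l1 by 0.55, Pdia6 by 0.54 and Manf by 0.46. With slide as a fixed term the difference turned negative for Hspa5 (-0.33), Pdia6 (-0.32) and Creld2 (-0.06), and for Hspd1 (-0.06) and Hspe1 (-0.32).

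Cholesterol synthesis genes were mixed. Of 26 measured, 18 differed below 0 with a median of -0.27, 0 passed, and 3 (11.5%, against 2.1% of all features) lay below every early array. Without the early arrays over 70% the count was 10 (38.5%, against 3.68%), and without 1 h replicates 1 and 2 it was 7 (26.9%, against 5.64%). The median turned to 0.32 with slide as a fixed term, and was -0.0078 between 18 and 4 h on slide 3. Hsd17b7, an enzyme of the pathway, stood at -1.77 to -1.06 early and at -2.19 and -2.13 at 24 h (difference -0.85, SE 0.22, adjusted p 0.354, limma). The regulator Insig1 differed by -0.59 and Srebf2, the factor that drives the pathway, by -0.55, neither passing. All 3 turned above 0 with slide as a fixed term, at 0.94, 0.74 and 0.23.

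Platelet genes differed below 0 in 17 of 18 measured members, with a median of -0.49, and 0 passed. The median was -0.42 between 18 and 4 h on slide 3. It turned to 0.49 with slide as a fixed term over both treatments, where that of all features was -0.16. Ppbp, a platelet chemokine, stood at 0.71 to 2.15 early and at 0.41 at both 24 h arrays (difference -1.18, SE 0.30, adjusted p 0.344, limma). The matrix protein Thbs1 stood at 4.06 and 4.32 at 3 h and 0.90 and 1.53 at 24 h (difference -1.20). Tubb1 differed by -1.25 (-2.01 without 24 h replicate 1 and -0.50 without replicate 2) and the von Willebrand receptor subunit Gp5 by -0.93. Ppbp, Tubb1, Gp5 and Thbs1 turned above 0 with slide as a fixed term, at 0.44, 0.62, 0.86 and 0.0089. NF-kappaB feedback genes differed below 0 in 14 of 19, with a median of -0.34 and of -0.33 between 18 and 4 h. Among them Birc3, an inhibitor of cell death, was at -0.05 to 0.34 early and at -0.54 and -0.72 at 24 h (difference -0.83, adjusted p 0.364), Tnfaip3 differed by -1.01 and Cebpd by -0.69. Birc3 turned to 0.20 with slide as a fixed term, and without 24 h replicate 1 Tnfaip3 was at -0.56 and Cebpd at -0.40.

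Fat cell genes had a median of -0.77 over 18 measured, with 14 below 0 and 0 passing. The direction turned between 18 and 4 h on slide 3, with a median of 0.88, and with slide as a fixed term, at 0.20. Ucp1, of brown fat, was not well above background at 24 h and was at least 6.62-fold lower in the processed signal (log2 difference -1.43 with normexp background), but ranged from -6.76 to 1.74 early. Lipe, the hormone-sensitive lipase, differed by -0.84 (adjusted p 0.369), Plin1 by -1.20 and Fabp4 by -0.86, and in that fit Plin1 was at 0.72 and Fabp4 at 1.71. The gluconeogenic enzyme Pck1, which liver and fat make, differed by -2.13 (adjusted p 0.505). The mean level of the list was -0.25 to 1.43 early and -0.10 and 0.03 at 24 h, and 1.5 h replicate 2 was the highest. The share of fat tissue in each lung sample was not tested. Liver genes differed below 0 in all 12 of that later list, with a median of -1.40, which was -1.03 without 1 h replicate 2 and -0.59 without 1 h replicates 1 and 2. Between 18 and 4 h on slide 3 the median of the liver genes lay the other way, at 2.63, but the 18 h arrays were far apart. The mean level of these genes was 4.11 on 18 h replicate 1 and -0.016 on 18 h replicate 2. At 4 h it was 0.076 and -0.997, so only 18 h replicate 1 lay above the 4 h arrays. A change of liver genes with time on slide 3 is therefore not shown. Fgb differed by -1.83 and Fga by -1.73, with Mup3 at -1.24 and Alb at -1.66, none passing. Without 24 h replicate 1 these were -1.19, -1.25, -0.47 and -0.87.

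**Figure D3:**
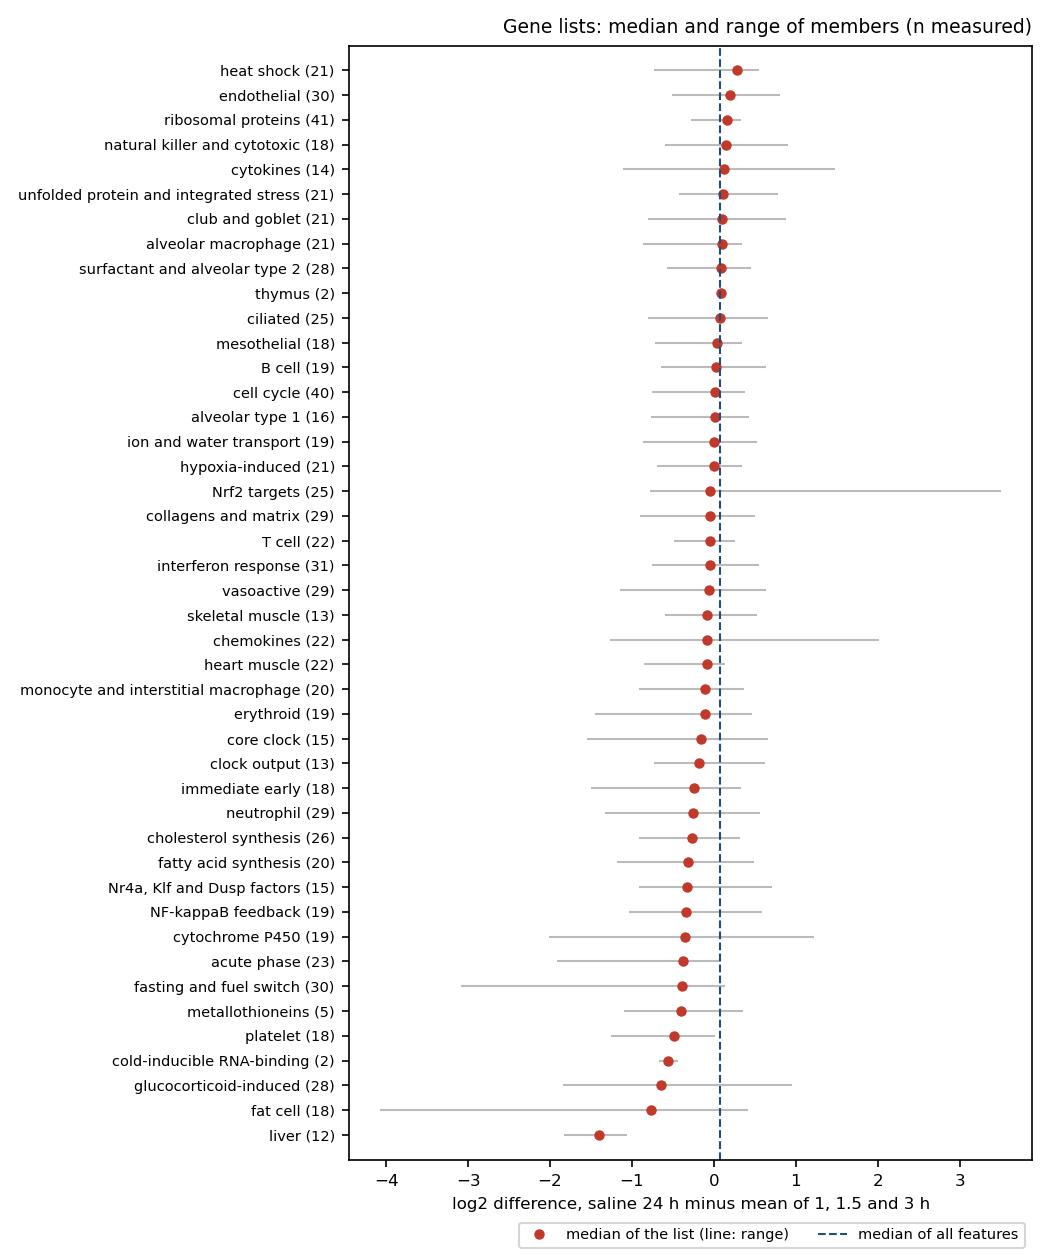
Median (point) and range of members (line) of the log2 difference, saline 24 h minus the mean of 1, 1.5 and 3 h, for 44 gene lists, with the number measured in brackets and the median over all features as a dashed line at 0.08. Glucocorticoid-induced genes had a median of -0.65 and heat shock genes of 0.28.

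Per1 alone of the core clock genes had 24 h arrays below all 7 early arrays (6.67%, against 2.1% of all features), and none lay above (against 5.77%). The count below was 3 (20%, against 5.64%) without 1 h replicates 1 and 2 and 2 (13.3%, against 3.68%) without the early arrays over 70%. It stayed at 1 (6.67%) without 1 h replicate 2 (against 2.8%) or without 1 h replicate 3 (against 2.47%). Of 15 core clock genes measured (Cry1 and Fbxl21 were not kept), 10 differed below 0 with a median of -0.15, and 0 passed (background 0.0178%). Of 13 clock output genes, 9 differed below 0, the median was -0.19, 0 passed, and Lonrf3 alone lay above the early arrays. Between 18 and 4 h on slide 3 the median was -0.56 for the core and -1.26 for the output genes. Dbp, a direct target of Arntl and Clock, was at 1.13, 1.73 and 5.91 at 1 h, 2.05 and 2.93 at 1.5 h, 4.57 and 4.96 at 3 h, and 5.14 and 4.42 at 4 h. It was at 0.55 and 0.90 at 18 h and at 2.63 and 2.92 at 24 h, above 18 h and below 3 h. Its difference from the early mean was -0.62 (SE 1.02, adjusted p 0.864), -0.12 without 1 h replicate 3 and -1.61 without 1 h replicates 1 and 2.

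Among the repressors Nr1d1 (REV-ERBα), which represses Arntl, stood at 1.03, 1.68 and 3.37 at 1 h, 2.89 and 3.20 at 1.5 h, 3.56 and 3.19 at 3 h and at 1.08 and 1.74 at 24 h. It differed by -1.41 (SE 0.51, adjusted p 0.476, limma). Its paralog Nr1d2 differed by -0.31, at -0.05 and 0.17. Per2 was at -2.74 and -2.75 at 24 h and at -3.17 to -0.71 early, and differed by -1.03 (adjusted p 0.592), or 1.23 with slide as a fixed term. In that fit Per3 also turned above 0, at 0.86. Per3 differed by -0.15, Cry2 by -0.10 and Ciart, a repressor of the loop, by -0.07. Cry2 at 24 h, at 2.82 and 2.73, stood above 1 h and 1.5 h except for 1.5 h replicate 2 at 2.74, and below 3 h at 3.36 and 3.88.

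Among the activators Arntl differed by 0.04 (SE 0.57), at -0.43 and 0.34 against -1.77 to 0.90 early, the lowest being 1 h replicate 3. Npas2 was at -6.61 there, a signal not well above background, and at -3.97 to -1.09 on the other early arrays, and differed by 0.66 (adjusted p 0.879). Npas2 was above background on 6 of 7 early arrays, and its difference was 0.13 without 1 h replicate 3 and -1.41 with slide as a fixed term. Clock differed by 0.03 and Rora by -0.16. The kinases Csnk1d and Csnk1e, which mark the Per proteins for decay, differed by 0.12 and -0.16. Among the output genes Tef differed by -0.04, Hlf by 0.03, Nfil3 by -0.37, Bhlhe40 by -0.50 and Bhlhe41 by 0.06. Wee1, a brake on mitosis, differed by -0.50, the cell cycle inhibitor Cdkn1a by -0.73, Coq10b by -0.47, Usp2 by -0.19, Por by 0.19 and Tsc22d3, also a glucocorticoid target, by -0.17. Lonrf3 was higher by 0.63 (adjusted p 0.476).

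**Figure D4:**
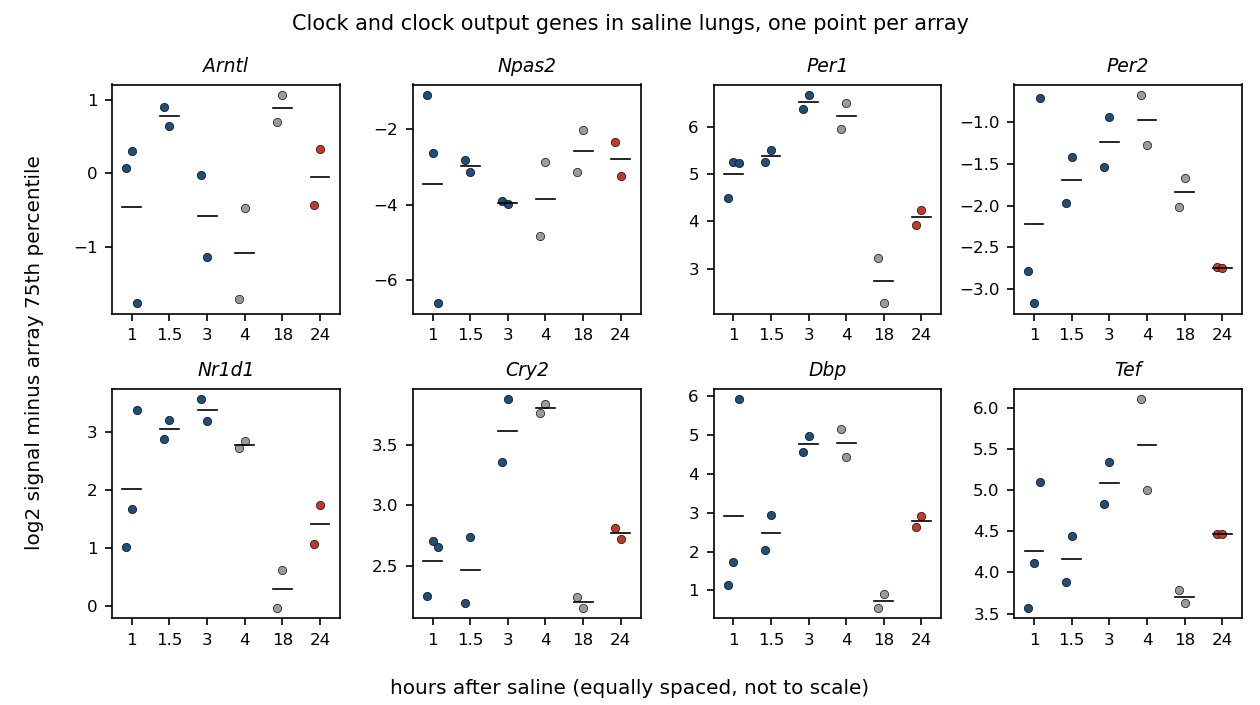
Log2 level in each saline array at 6 times for 8 clock and clock output genes, colours and lines as for the leading genes. Dbp was at 2.63 and 2.92 at 24 h, between 0.55 and 0.90 at 18 h and 4.57 and 4.96 at 3 h, and 1 h replicate 3 stood apart at 5.91.

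Promoter letters were looked at for the clock genes and the leading genes, and Per1 is shown as the one core clock member below all its early arrays. The 250 bases upstream of a Per1 start site, chr11:69098699-69098948 on the plus strand of GRCm38.p6 from RefSeq, are given 5′ to 3′. In capitals are an E-box (CACGTG), the site of Arntl and Clock, and AGGTCA, the core of a ROR element, here on the other strand:
Per1 upstream: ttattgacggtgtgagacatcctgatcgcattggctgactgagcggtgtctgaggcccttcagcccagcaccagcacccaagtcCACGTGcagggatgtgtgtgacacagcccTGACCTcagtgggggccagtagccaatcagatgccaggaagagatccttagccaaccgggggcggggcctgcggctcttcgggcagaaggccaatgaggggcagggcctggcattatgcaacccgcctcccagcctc
The E-box starts 166 bases before the start site and the AGGTCA core 137. Bases beside that core were not searched, so a full ROR element is not shown. The promoter of the other Per1 start site, with upstream bases chr11:69099902-69100151 on the plus strand, held none of the motifs searched. AGGTCA was in 4 core and 1 output genes of those counted below, against 18.1% of all genes. Of the measured core clock genes, 11 had a promoter in the table, and of those 2 held an E-box in the 300 bases searched on both strands, against 8.09% of all genes. Of 11 output genes 4 held one. The D-box (TTATGTAA) was in 1 core gene, Per3, and in 1 output gene, Coq10b, against 1.11% of all genes. The cAMP element (TGACGTCA) was in Hlf alone of these 22 genes, against 2.03% of all genes. The palindromic glucocorticoid response element was in 0.0111% of all genes, too rare for its absence from these 22 to be read. Of 16 leading genes outside the clock lists with a promoter to search, 3 held an E-box, 2 AGGTCA and 1 the cAMP element.

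In oleic acid mice the same late change was fitted from other arrays, on the same slides except for 1 early array. There 182 of 28085 features passed (0.648%), 86 higher (0.306%) and 96 lower (0.342%). The count was 32 to 58 without any one of the 24 h arrays, 102 without 1.5 h replicate 2 and 7 with median centring. Of these, 178 (97.8%) had the same sign in saline mice, against 66.9% of all features. For 85 (46.7%) both saline 24 h arrays lay outside the early saline range in that direction, against 5.77% of all features above it and 2.1% below it. Slides 1, 2 and 4 served both treatments, so slide and time cannot be told apart in oleic acid mice either. Gsta1 rose by 2.23 (adjusted p 0.0236, limma), Hes2 by 1.00 (adjusted p 0.00367), Mthfsd by 0.93 (adjusted p 0.00837) and Cbx8, dim on most early saline arrays, by 1.99 (adjusted p 0.0164). Foxo3 fell by 1.82 (adjusted p 0.000722), Mir22hg by 1.1 (adjusted p 0.000236) and Per1 by 2.14 (adjusted p 0.00484). Fdxacb1 rose by 0.75 and Tead3 fell by 0.86. Il1r2 fell by 2.08 and Txnrd1 by 0.71, and Osgin1 by 1.12.

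The difference of the late change between the treatments passed for 0 of 28085 features by limma, with 627 (2.23%) at an unadjusted p under 0.05 and a smallest adjusted p of 0.216. Without saline 24 h replicate 1 it passed for 21, and without saline 24 h replicate 2 or oleic acid 24 h replicate 2 or 3 for 1. For Gsta1 it was 1.27 in favour of saline mice (95% interval -0.17 to 2.71, unadjusted p 0.0806), so a larger rise in either treatment was not shown. For L3mbtl4, whose oleic acid difference was 0.11, the unadjusted p was 0.000603, for Rsad1 0.00395 and for Slc5a9 0.014. Those for Foxo3 (0.274), Ppp1r3c (0.256) and Per1 (0.259) were above 0.05, which does not show that the treatments were alike.

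**Figure D5:**
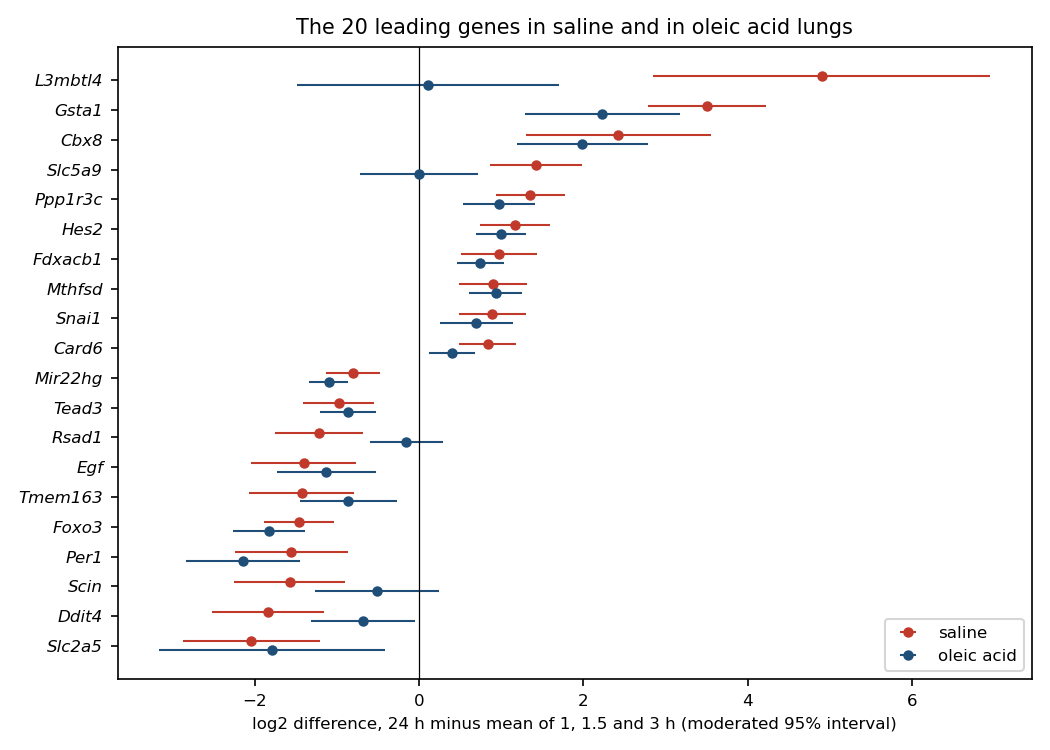
Log2 difference, 24 h minus the mean of 1, 1.5 and 3 h, with its moderated 95% interval for the 20 leading genes in saline (red) and oleic acid (blue) lungs. Gsta1 lay at 3.50 and 2.23, and L3mbtl4 at 4.90 in saline and 0.11 in oleic acid mice, where fitted values of the 5 genes given as bounds above include signals not well above background.

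Between 18 and 4 h on slide 3, 18 features passed (0.0641%), 5 higher and 13 lower (0.0463%), with 5498 (19.6%) at an unadjusted p under 0.05. The count was 0 without 18 h replicate 1, 42 without 4 h replicate 1 and 8 without 4 h replicate 2. Of the 18, 16 had the same sign at 24 h against the early arrays, and none was among the 5 that passed there. The share of all features with the same sign was not computed here, so the 16 are a description only. Both comparisons drew their spread from the same 13 saline arrays. The named genes among them were Foxo3, Cirbp, Mir22hg, Ppp1r3c, Per1, Tent5b, Cep41, Cd164l2 and Odf2. The last 4 were named after their values were seen. Tent5b fell by 2.67 between 4 and 18 h and differed by -0.97 at 24 h, while Cd164l2 fell by 1.46 and differed by 0.12 at 24 h.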

How the data were processed

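Lung RNA was hybridised to one-colour Agilent arrays, 1 sample to an array. The deposited intensity files hold, per the file headers, signals that the scanner software had background-subtracted and detrended; it was Agilent Feature Extraction 10.5.1.1, per the submitters' processing notes. The log2 table that the authors deposited has columns whose sorted values differ by at most 0.0179, and how its background was treated is not given in the sources used here; it served as an alternative. Probe coordinates are those of the files (mm9).

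Of 62976 spots, 3671 controls and any spot marked as an outlier were dropped, log2 processed signals were lowered by the 75th percentile of each array, and spots of a probe were averaged. A probe was kept when well above background on all arrays of at least 1 saline group, and the brightest probe stood for a gene, which left 28085 features from 55681 probes. Current symbols came from RefSeq by accession for 26680 probes and by the symbol in the files for 2542.

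limma 3.58.1 with statmod 1.5.0 in R 4.3.3 was fitted over 13 saline arrays in 6 time groups, with 7 residual degrees of freedom, and adjusted by Benjamini-Hochberg over all features. Oleic acid contrasts used 29 arrays: oleic acid 1.5 h replicate 3 and 3 h replicate 2 were left out for poor signal. The number of arrays limits the precision. Where no array of a group was well above background the fold is given as a bound, the brighter group against the lowest signal measured above background. The script was tested on simulated data.

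Named were genes with a current symbol that passed without overlap between late and early arrays, then those without overlap with the smallest p up to 10 in each direction, and of each list described up to 8 members with the smallest p, with the clock members; a few genes these rules name are not reported here. The members and the 43 lists were chosen with earlier results of these data known. Alternatives covered background, scaling, filter, probe summary, slide, replicate number, array weights, moderation, threshold and the arrays used.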

Additional observations from a re-analysis of the deposited data

How the results depend on the processing

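Late and early saline arrays lay on different slides, groups held 2 or 3 arrays, and the hour of day was not given. Signal near background limits dim probes. Median centring moved the median difference of all features from 0.08 to -0.05, and that of 18 against 4 h from -0.05 to -0.52. Causes of the shifts below were not tested.

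The 5 features that passed at 24 h became 0 with quantile normalization, the deposited table, no filter on dim probes, adjusted p under 0.01, only the 9 arrays compared, 1.5 and 3 h alone as reference, or without 1 h replicates 1 and 2. It was 2 with the mean of the probes of a gene, 1 with all 31 arrays, 90 with 29 arrays (64 higher, 26 lower), 296 with slide as a random block (201 higher, 95 lower) and 39 with slide as a fixed term (36 higher, 3 lower). Chosen after seeing the data, leaving out the 2 early arrays with over 70% of spots above background gave 0, as did leaving out the 4 Gsta family features. Leaving out 1 array at a time gave 0 to 9.

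The 182 in oleic acid mice became 72 with quantile normalization, 7 with median centring, 96 in the deposited table, 367 with slide as a random block, 1015 with array weights, 44 at adjusted p under 0.01, 1 with all 31 arrays, and 1092 with weights on all 31, the last chosen after seeing the data. Leaving out 1 array gave 32 to 186. The difference between treatments gave 0 in every other setting and 0 to 21 when 1 array was left out. The 18 of 18 against 4 h became 259 with normexp background, 88 in the deposited table, 0 with no filter, 301 with probes above background on every array, 7 with the mean of probes, 8 with array weights, 8 with the share above background as a covariate, 361 with trend and robust moderation, 0 at adjusted p under 0.01, 0 with only the 4 arrays and 1645 with 29 arrays. Leaving out 1 array gave 0 to 42.

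The replicate number as a block gave 0 at 24 h and 10 at 18 against 4 h. Deviations of same-numbered arrays correlated from -0.61 to 0.51 over pairs of groups. The share of spots above background also differed between these arrays, so the correlations cannot decide whether the numbers pair the samples.

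Over the genes named, 3307 values kept direction and side of the threshold, 21 no longer passed, 43 passed only in the alternative and 80 changed sign. Of these genes only Gsta1 had passed, so all 21 lost calls were those of Gsta1, which passed in 14 of 35 settings. For every other gene a kept value is one that did not pass in either fit, so the 3307 do not show that a call is stable. The fit with slide as a fixed term pools both treatments, at a median standard error of 0.54 against 0.25. For the values that changed sign, the log2 difference at 24 h is given. With slide as a fixed term it was Slc5a9 -1.18, L3mbtl4 -0.26, Rsad1 0.49, Per2 1.23, Csnk1d -0.012, Npas2 -1.41, Per3 0.86, Por -1.02, Bhlhe41 -1.33, Slc25a20 0.24, Fabp4 1.71, Hspe1 -0.32, Hspd1 -0.060, Hsd17b7 0.94, Srebf2 0.23, Insig1 0.74, Gsta2 -0.67, Plin1 0.72, Ppbp 0.44, Tubb1 0.62, Gp5 0.86, Thbs1 0.0089, Birc3 0.20, Creld2 -0.056, Hspa5 -0.33 and Pdia6 -0.32. With normexp background it was Tmem163 0.0066, Ciart 0.0063, Arntl -0.0036, Hlf -0.026 and Dusp5 0.052. With the mean of the probes of a gene it was Csnk1d -0.059 and Bhlhe41 -0.37. With median centring it was Csnk1d -0.0057, Clock -0.090, Arntl -0.084, Hlf -0.097 and Bhlhe41 -0.068. With the mean of the 7 early arrays as reference it was Ciart 0.039. Without the 2 early arrays over 70% it was Ciart 0.091 and Hlf -0.0098. In the deposited table it was Clock -0.061, Por -0.080, Hlf -0.033 and Bhlhe41 -0.12. With the replicate number as a block it was Clock -0.075, Arntl -0.18 and Tef 0.10. With array weights it was Clock -0.044 and Arntl -0.10. With 1.5 and 3 h only as reference it was Clock -0.080, Arntl -0.15 and Hlf -0.094. With quantile normalization it was Arntl -0.0072. With the share above background as a covariate it was Hlf -0.046. Without 1 h replicates 1 and 2 it was Hlf -0.24. Leaving out 1 array at a time gave ranges of Per3 from -0.44 to 0.14, Ciart from -0.25 to 0.11, Clock from -0.075 to 0.11, Arntl from -0.34 to 0.42, Usp2 from -0.43 to 0.060, Por from -0.097 to 0.47, Tef from -0.15 to 0.10, Hlf from -0.21 to 0.26 and Bhlhe41 from -0.68 to 0.79.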
